A study of Mus musculus with 20 samples.

Results

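The genes described here are 10 genes of hepatic glucose production and glucose handling: Pck1, Pcx, Fbp1 and G6pc, which encode enzymes of gluconeogenesis, Slc37a4, Slc2a2, Ppargc1a, Tat, Gys2 and Pygl. They were taken by symbol from a table of 45802 gene entries. All 10 were found, all 10 had a value in each of 20 libraries, and all 10 passed the filter on low values. The libraries were bulk RNA sequencing libraries of fetal mouse liver at E17.5, from C57BL/6 dams fasted for 24 h. There were 5 groups of 4 fetuses, each with 2 females and 2 males.

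In the first arm the gene varied was Ppara, which encodes the nuclear receptor PPARA. HetDam_HetFetus were Ppara heterozygous fetuses of heterozygous dams. KODam_HetFetus were heterozygous fetuses of Ppara knockout dams, and KODam_KOFetus were knockout fetuses of knockout dams. No fetus of this arm carried 2 intact copies of Ppara by its label. In the second arm the varied gene was Cpt2, whose product long-chain fatty acids need to enter mitochondrial oxidation. FloxDam_FloxFetus were Cpt2f/f fetuses of Cpt2f/f dams, and their titles call both wild type. Cpt2LKODam_FloxFetus were Cpt2f/f fetuses of dams labelled Cpt2f/f; Albumin-Cre, in which the albumin promoter drives Cre in hepatocytes. Maternal fasting was common to all 5 groups, and no fed group was analysed here. A number in the descriptions, explained by no label, was shared by KODam_HetFetus replicates 1 and 2, by KODam_KOFetus replicates 1 and 2 and by FloxDam_FloxFetus replicates 3 and 4. These pairs are presumed littermates, and since each fetus is counted as a replicate, the p-values mix variation among litters with variation among fetuses. They treat littermates as independent and may be too small. No such number was shared between groups. Every comparison, the fetal one included, is thus also between different presumed litters, which cannot be told apart from genotype.

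The liver keeps blood glucose up in fasting by breaking down glycogen and by making glucose from lactate, glycerol and amino acids. Both routes end in glucose-6-phosphate, which is carried into the endoplasmic reticulum, split into glucose and phosphate, and released. Before birth the fetus lives mainly on maternal glucose that crosses the placenta, and the liver stores glycogen in late gestation, while gluconeogenic enzymes are induced around birth. Glucagon, acting through cyclic AMP, and glucocorticoids raise Pck1, G6pc and Tat transcription, and insulin lowers it. PPARA activates the genes of fatty acid breakdown and ketone production in the fasted adult liver.

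The stretches before the transcription start are printed for the 3 genes that varied most between libraries of one group (Pck1, G6pc and Tat) and for the 2 that fell when the dam lacked Ppara (Slc2a2 and Pygl). They are RefSeq sequence of GRCm38.p6, 250 bases that end just before the annotated start, 5′ to 3′ on the strand of the gene. Capitals mark matches to the motifs searched on both strands: TGACGTCA (the cyclic AMP response element), its variant TTACGTCA, the half-site TGACG, the forkhead motifs TGTTTT and GTAAACA, the glucocorticoid half-site TGTTCT, the full glucocorticoid element, and 2 copies of AGGTCA spaced by 1 base. A match on the other strand appears as its reverse complement.
Pck1: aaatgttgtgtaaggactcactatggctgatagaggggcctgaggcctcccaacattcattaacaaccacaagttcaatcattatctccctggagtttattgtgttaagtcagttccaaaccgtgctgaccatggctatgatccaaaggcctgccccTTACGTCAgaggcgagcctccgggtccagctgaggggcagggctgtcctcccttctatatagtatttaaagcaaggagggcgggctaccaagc
G6pc: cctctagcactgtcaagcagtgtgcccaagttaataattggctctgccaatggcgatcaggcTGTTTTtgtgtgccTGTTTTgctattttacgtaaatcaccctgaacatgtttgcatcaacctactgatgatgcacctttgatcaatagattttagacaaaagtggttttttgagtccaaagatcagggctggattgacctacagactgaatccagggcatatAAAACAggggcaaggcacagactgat
Tat: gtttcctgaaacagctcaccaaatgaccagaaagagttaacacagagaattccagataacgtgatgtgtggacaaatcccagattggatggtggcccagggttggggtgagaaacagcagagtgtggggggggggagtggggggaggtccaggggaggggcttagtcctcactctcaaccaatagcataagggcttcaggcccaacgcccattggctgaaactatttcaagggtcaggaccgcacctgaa
Slc2a2: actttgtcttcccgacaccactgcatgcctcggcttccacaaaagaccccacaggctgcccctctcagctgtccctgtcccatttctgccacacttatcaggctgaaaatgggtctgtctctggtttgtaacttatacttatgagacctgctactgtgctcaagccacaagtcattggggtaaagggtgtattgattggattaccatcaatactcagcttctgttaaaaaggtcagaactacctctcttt
Pygl: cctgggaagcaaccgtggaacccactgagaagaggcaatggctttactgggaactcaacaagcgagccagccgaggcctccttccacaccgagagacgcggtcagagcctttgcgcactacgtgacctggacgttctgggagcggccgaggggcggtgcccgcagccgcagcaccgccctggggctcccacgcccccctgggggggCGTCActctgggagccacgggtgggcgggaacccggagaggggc
These 5 stretches lie at chr2:173152823-173153072, chr11:101367466-101367715 and chr8:109990186-109990435 on the plus strand, at chr3:28697653-28697902 on the plus strand, and at chr12:70227684-70227933 on the minus strand. The stretch of Tat lies inside the annotated span of that gene, 109986078 to 109999804, and the other 4 end where the annotated gene begins.

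The Pck1 stretch held TTACGTCA from base 93 to base 86 before the start, a sequence found in 0.447% of 32851 mouse promoter stretches of the same length. The half-site read on the other strand, from base 90 to base 86, lies within that match. G6pc held TGTTTT at 3 places, whose far ends lie 188, 174 and 26 bases before the start. That short motif was in 19.8% of all stretches. Pygl held the half-site once, on the other strand from base 44 to base 40, as did Ppargc1a from base 49 to base 45, against 17.8% of all stretches. Slc37a4 has 3 annotated starts, and its first and second stretches overlap. The half-site from base 61 to base 57 before the first start is the same as that from base 214 to base 210 before the second. Another lay on the other strand from base 82 to base 78 before the second start, and TGTTTT lay once before the first start and once before the third. Tat, Slc2a2, Fbp1 and the 2 annotated starts of Pcx held none of the letters searched in this window. In total 9 of the 10 members had an entry, with 12 starts; the entry missing was that of Gys2. A match in letters is a description and shows no binding.

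The values are the authors' log2 expression values, quantile normalized over the genes with a value in each library. That number ran from 23334 to 26255, so the tested genes alone do not share one distribution. No source names what was logged, and the base was read as 2 from the range. The depth is therefore unknown, and levels are compared between libraries for one gene or one marker list, never between genes or lists. Of all genes, 11807 were tested, with a linear value of at least 1 in at least 4 libraries. Differences were tested by limma over all tested genes with Benjamini-Hochberg adjustment, and a gene is said to have risen or fallen where the adjusted p was under 0.05. Ppara itself had log2 values of 2.86 to 3.47 in HetDam_HetFetus, 1.81 to 3.22 in KODam_HetFetus, 1.87 to 2.48 in KODam_KOFetus, and 2.88 to 3.71 in both groups of the Cpt2 arm. It was lower with both knockouts (-0.87 ± 0.26, adjusted p = 0.0237). Its transcript was thus still read in the knockout fetuses, whose values overlapped those of heterozygous fetuses of knockout dams, and which exons are deleted is not given in the sources used here. The Cpt2 deletion is in the dam, so fetal RNA does not check it.

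All 11 hepatocyte markers and all 10 erythroid markers passed the filter, the latter being transcripts of the red cell precursors of a blood-forming fetal liver. The log2 of the summed linear values, called the summed log2 level below, ran over the libraries from 16.2 to 17.1 for the hepatocyte list and from 17.4 to 17.8 for the erythroid list. None of the 10 kidney markers reached the minimum, and their highest single value was -1.89; kidney is another organ that expresses Pck1, G6pc and Fbp1. Skeletal muscle markers summed to 7.38 in HetDam_HetFetus replicate 4 and to 7.84 in KODam_KOFetus replicate 2, against at most 4.35 elsewhere. Pancreatic markers summed to 8.37 in Cpt2LKODam_FloxFetus replicate 2, against at most 5.04 in the other libraries. The gut regulators Cdx1 and Cdx2 reached 0.92 and 0.41 in HetDam_HetFetus replicate 1 only. Results were recomputed without these 4 libraries together, a setting chosen after seeing the data. In bulk tissue, fewer cells of a type and less RNA per cell cannot be told apart.

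When the dam lacked Ppara and the fetus was heterozygous, the glucose carrier Slc2a2 and the glycogen phosphorylase Pygl fell in fetal liver, and no member rose. That is 2 of 10 members, both lower, where 39.0% of all tested genes were called in that comparison (26.4% higher and 12.6% lower). The share of members was below that of all genes for calls in either direction, but above it for lower calls alone. With 10 members, neither is read as a result about the set. When dam and fetus both lacked Ppara, 4 members were lower than in HetDam_HetFetus (Gys2, Slc2a2, Pygl and Fbp1) and none was higher, against 24.7% of all genes called (17.4% higher and 7.31% lower). The balance over all genes depended on the scaling. Under trimmed-mean scaling the 2053 higher and 863 lower calls of the combined comparison became 1155 and 1385, and 5 members were called, all lower; the maternal comparison went from 3117 and 1483 to 2228 and 2225, with 3 members called, all lower. Without the 4 libraries with transcripts of other tissues, 2 members were called in each of these comparisons. Over all genes the calls were then 3173 of 11785 (820 lower) for the maternal knockout and 1757 of 11784 (518 lower) for both. With the dam a knockout throughout, knockout fetuses were compared with heterozygous fetuses of other presumed litters. That gave 0 members called by limma (1 at an unadjusted p under 0.05), against 0.822% of all genes (10.9% at an unadjusted p under 0.05). When the dam lacked Cpt2 in the liver, 0 members were called (2 at an unadjusted p under 0.05), and the share called among all genes was 0% (11.1% at an unadjusted p under 0.05). The maternal Ppara comparison shares KODam_HetFetus with the fetal one and HetDam_HetFetus with the combined one.

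**Figure D1:**
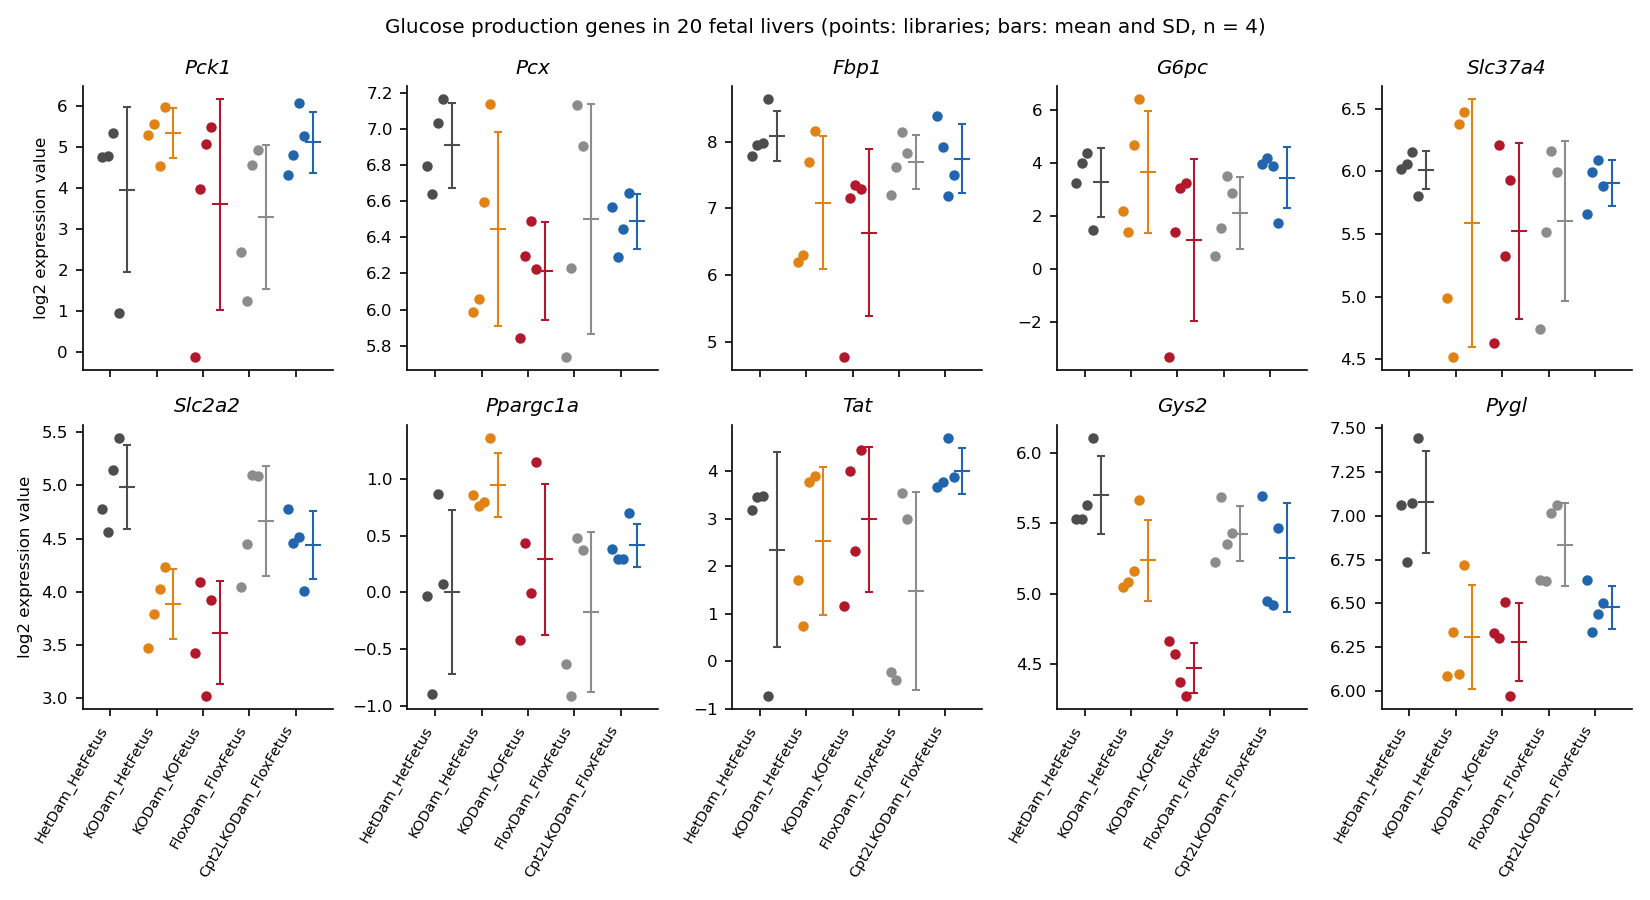
Log2 expression value of each of the 10 members (vertical axes, each with its own range) in the 20 libraries, by group; points are libraries and the bars beside them are the mean and SD (n = 4). Gys2 is lower in all 4 KODam_KOFetus libraries than in any other, Pygl and Slc2a2 are lower in both groups of knockout dams than in HetDam_HetFetus, and Pck1, G6pc and Tat are spread over several log2 units within most groups.

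Among the glycogen enzymes, Gys2, the liver glycogen synthase that lengthens glycogen chains, had log2 values of 5.53, 5.53, 5.63 and 6.11 in HetDam_HetFetus. In KODam_HetFetus they were 5.04, 5.08, 5.16 and 5.67, and in KODam_KOFetus 4.66, 4.57, 4.37 and 4.27. All 4 knockout fetuses lay below every other library of the series, and the heterozygous fetuses of knockout dams lay between, overlapping the controls through replicate 4 alone. Gys2 fell by 1.23 ± 0.18 (SE) on the log2 scale, or 2.35-fold lower, when dam and fetus lacked Ppara (limma adjusted p = 3.47e-04). The call held in all 20 alternatives, with values of -1.35 to -1.10. The 2 steps of that difference did not pass on their own: -0.46 ± 0.18 for the maternal knockout (adjusted p = 0.0539) and -0.77 ± 0.18 for the fetal knockout (adjusted p = 0.0593). The maternal step was called under trimmed-mean scaling (-0.59, adjusted p = 0.0221) and without KODam_HetFetus replicate 4 (-0.61, adjusted p = 0.0176). Gys2 was the only member with no overlap in the fetal comparison, a pattern seen toward lower values in 4.04% of all genes.

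Pygl, the liver glycogen phosphorylase that releases glucose-1-phosphate from glycogen, had log2 values of 7.06, 6.74, 7.07 and 7.45 in HetDam_HetFetus. They were 6.08, 6.33, 6.09 and 6.72 in KODam_HetFetus and 6.33, 6.30, 6.50 and 5.97 in KODam_KOFetus. Neither group of knockout dams reached the lowest control, and the 2 groups overlapped each other. Pygl fell by 0.77 ± 0.16 on the log2 scale, 1.71-fold lower, with the maternal knockout (adjusted p = 0.00168). This call held in all 21 alternatives (-0.91 to -0.59). With both knockouts it fell by 0.80 ± 0.16 (adjusted p = 0.00262), and between knockout and heterozygous fetuses the difference was -0.03 ± 0.16, with an interval of -0.38 to 0.31. Without the 4 libraries that carried transcripts of other tissues the combined difference was -0.63 and missed the threshold (adjusted p = 0.0559). In the Cpt2 arm Pygl had 6.63, 6.62, 7.02 and 7.06 in FloxDam_FloxFetus and 6.63, 6.34, 6.44 and 6.50 in Cpt2LKODam_FloxFetus, a difference of -0.36 ± 0.16 that did not pass (adjusted p = 0.437).

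Of the carriers, Slc2a2, which encodes GLUT2, the carrier through which hepatocytes take up and release glucose, had log2 values of 4.78, 4.56, 5.14 and 5.45 in HetDam_HetFetus. The values were 3.47, 3.79, 4.03 and 4.24 in KODam_HetFetus and 3.43, 4.10, 3.02 and 3.92 in KODam_KOFetus. Every fetus of a knockout dam lay below every fetus of a heterozygous dam. Libraries of the maternal comparison separated toward lower values for 2 members (Slc2a2 and Pygl) and for 11.8% of all genes. Slc2a2 fell by 1.10 ± 0.27 on the log2 scale, 2.15-fold lower, with the maternal knockout (adjusted p = 0.00404), and by 1.37 ± 0.27 with both (adjusted p = 0.00212). The first call was lost without the presumed littermates KODam_HetFetus 1 and 2 (-0.85, adjusted p = 0.0667), and the second held in all 20 alternatives (-1.53 to -1.13). The fetal step was -0.27 ± 0.27 (adjusted p = 0.733). In FloxDam_FloxFetus the values were 4.04, 4.44, 5.09 and 5.09, and in Cpt2LKODam_FloxFetus 4.78, 4.46, 4.51 and 4.01, which overlapped.

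Slc37a4, the carrier that takes glucose-6-phosphate into the endoplasmic reticulum, had log2 values of 6.02, 6.06, 6.16 and 5.80 in HetDam_HetFetus. KODam_HetFetus split, with 4.99 and 4.52 in the presumed littermates and 6.38 and 6.48 in the other two, on either side of all controls. KODam_KOFetus had 4.63, 6.21, 5.32 and 5.93, FloxDam_FloxFetus 4.74, 5.51, 6.16 and 5.99, and Cpt2LKODam_FloxFetus 5.66, 5.99, 6.09 and 5.88. No comparison called it, and the largest difference between a pair of groups was -0.49 ± 0.39, with both knockouts (adjusted p = 0.376).

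The gluconeogenic enzymes begin with Pcx, pyruvate carboxylase, which makes oxaloacetate from pyruvate in mitochondria. It had log2 values of 6.80, 6.64, 7.03 and 7.17 in HetDam_HetFetus. KODam_HetFetus had 5.99, 6.06, 6.59 and 7.14, and KODam_KOFetus 5.85, 6.30, 6.49 and 6.22. The knockout fetuses all lay under the controls, although the difference of -0.69 ± 0.27 missed the threshold (adjusted p = 0.0616). Pcx was called in that comparison under trimmed-mean scaling (-0.81, adjusted p = 0.0246), quantile normalization of the tested genes (-0.73, adjusted p = 0.0439) and a fit of the compared groups only (adjusted p = 0.0174). In the Cpt2 arm FloxDam_FloxFetus had 5.74, 6.23, 7.13 and 6.91 and Cpt2LKODam_FloxFetus 6.57, 6.29, 6.44 and 6.65. Both means were close, at 6.50 and 6.49, and the difference was -0.01 with an interval of -0.57 to 0.54.

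Fbp1, fructose-1,6-bisphosphatase, which makes fructose-6-phosphate on the way to glucose-6-phosphate, had log2 values of 7.79, 7.95, 7.98 and 8.64 in HetDam_HetFetus. KODam_HetFetus again split by presumed litter, with 6.19 and 6.30 in replicates 1 and 2 and 7.70 and 8.16 in replicates 3 and 4. KODam_KOFetus had 4.76, 7.16, 7.35 and 7.29, all below the controls, and replicate 1 far below its presumed littermate, replicate 2. Fbp1 fell by 1.46 ± 0.50 on the log2 scale, 2.74-fold lower, with both knockouts (adjusted p = 0.0398). The call was lost in 9 of 20 alternatives. Without KODam_KOFetus replicate 1 the difference was -0.83 (adjusted p = 0.142). It was also lost without HetDam_HetFetus replicate 1 (adjusted p = 0.0508), 2 (0.0627), 3 (0.0656) or 4 (0.105), and with presumed litter as a random block (-1.31, adjusted p = 0.126). In the Cpt2 arm Fbp1 had 7.20, 7.62, 8.15 and 7.83 in FloxDam_FloxFetus and 8.38, 7.92, 7.18 and 7.51 in Cpt2LKODam_FloxFetus, which overlapped. With both knockouts 5 members (Pcx, Fbp1, Slc2a2, Gys2 and Pygl) had all libraries below all controls, as did 7.29% of all genes.

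Pck1, the cytosolic phosphoenolpyruvate carboxykinase that turns oxaloacetate into phosphoenolpyruvate, had log2 values of 4.74, 4.77, 5.34 and 0.96 in HetDam_HetFetus. The values were 5.28, 5.55, 4.53 and 5.97 in KODam_HetFetus and -0.13, 3.98, 5.07 and 5.47 in KODam_KOFetus. FloxDam_FloxFetus had 2.43, 1.23, 4.56 and 4.91, and Cpt2LKODam_FloxFetus 4.31, 4.81, 6.05 and 5.26. Values below 2.5 sat in 4 libraries, from HetDam_HetFetus, KODam_KOFetus and FloxDam_FloxFetus, and none in KODam_HetFetus or Cpt2LKODam_FloxFetus. The differences were 1.38 ± 1.07 with the maternal Ppara knockout (adjusted p = 0.32) and 1.82 ± 1.07 with the maternal Cpt2 knockout (adjusted p = 0.531), neither past the threshold. Without HetDam_HetFetus replicate 4 the first was 0.38.

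G6pc, the catalytic subunit of glucose-6-phosphatase, which frees glucose for release, had log2 values of 3.22, 3.98, 4.37 and 1.44 in HetDam_HetFetus. KODam_HetFetus ranged from 2.17 and 1.40 in the presumed littermates to 4.66 and 6.40 in replicates 3 and 4. KODam_KOFetus had -3.35, 1.37, 3.03 and 3.21, FloxDam_FloxFetus 0.46, 1.53, 3.49 and 2.85, and Cpt2LKODam_FloxFetus 3.94, 4.16, 3.88 and 1.73. The groups overlapped in all comparisons. The fetal knockout gave the largest difference, -2.59 ± 1.24, with an interval of -5.18 to 0.00 and an adjusted p of 0.458. Leaving out KODam_KOFetus replicate 1 brought it to -1.12.

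Amino acid breakdown is represented by Tat, tyrosine aminotransferase, which starts tyrosine breakdown and is a classical glucocorticoid-induced liver enzyme. It had log2 values of 3.19, 3.45, 3.47 and -0.73 in HetDam_HetFetus. KODam_HetFetus had 1.72, 0.75, 3.76 and 3.90, and KODam_KOFetus 1.16, 4.01, 2.32 and 4.44. In FloxDam_FloxFetus the values were -0.22, -0.40, 3.53 and 3.00, with the presumed littermates high and the other two low. All 4 fetuses of dams without liver Cpt2 lay above every FloxDam_FloxFetus library, at 3.65, 3.77, 4.70 and 3.86. Tat was the only member whose libraries separated in that comparison, as 3.25% of all genes did toward higher values. Its difference of 2.52 ± 1.03, with an interval of 0.36 to 4.68, did not pass over all genes (adjusted p = 0.395; unadjusted p = 0.0244).

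Ppargc1a encodes PGC-1alpha, the coactivator that raises gluconeogenic and mitochondrial genes in fasting. Its log2 values were -0.03, -0.89, 0.87 and 0.07 in HetDam_HetFetus, 0.86, 0.76, 0.80 and 1.36 in KODam_HetFetus, and -0.41, 0.44, -0.00 and 1.14 in KODam_KOFetus. KODam_HetFetus was the tightest of the 3 groups and overlapped the controls through HetDam_HetFetus replicate 3. Over all 20 libraries Ppargc1a ran from -0.91 to 1.36, near the filter minimum. The maternal knockout difference was 0.94 ± 0.37 (adjusted p = 0.0521). It passed without HetDam_HetFetus replicate 3 (1.23, adjusted p = 0.0177), with fetal sex as a covariate (adjusted p = 0.0425) and with a pseudocount of 4 (0.23, adjusted p = 0.0382). In the Cpt2 arm FloxDam_FloxFetus had -0.63, -0.91, 0.48 and 0.37 and Cpt2LKODam_FloxFetus 0.38, 0.29, 0.29 and 0.69, a difference of 0.59 ± 0.37 (adjusted p = 0.568).

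**Figure D2:**
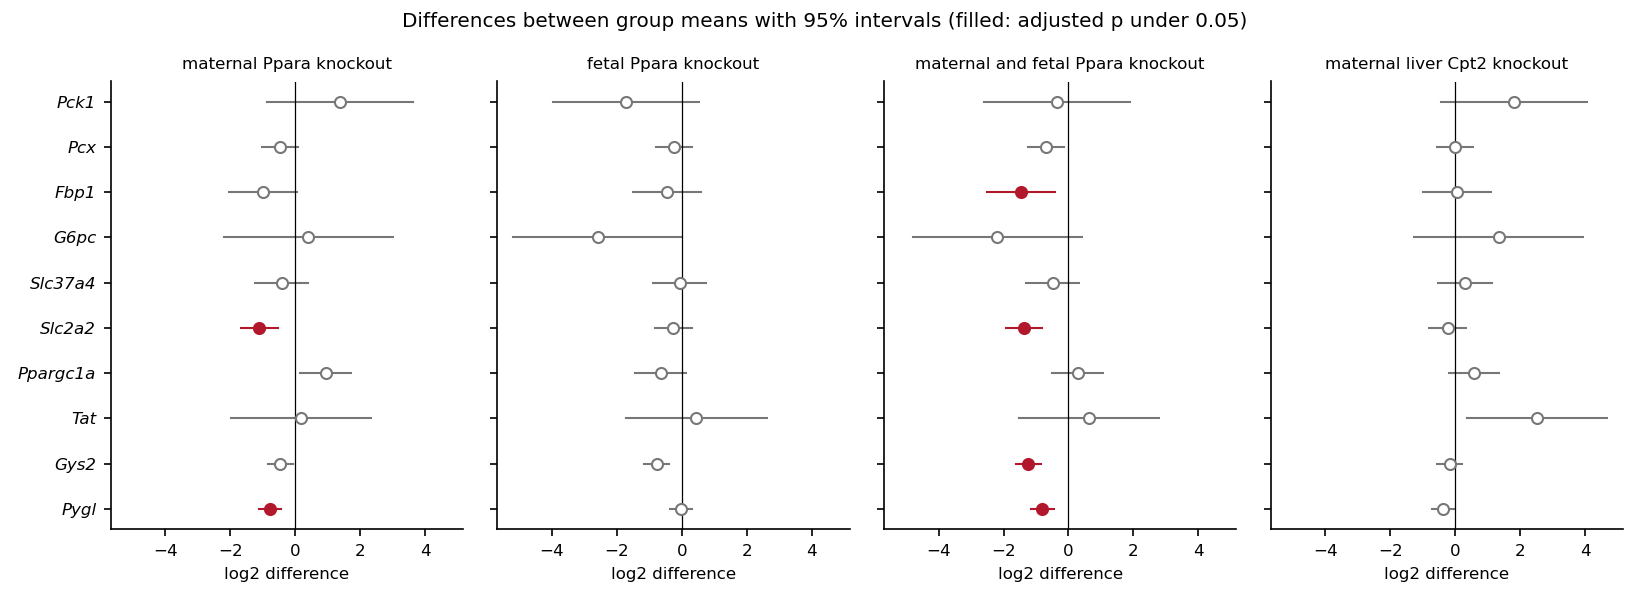
Log2 difference between group means (horizontal axis) with its 95% interval for the 10 members in 4 comparisons; filled symbols passed an adjusted p of 0.05 by limma. Pygl and Slc2a2 are filled for the maternal Ppara knockout, with Fbp1 and Gys2 joining for both knockouts, and the intervals of Pck1, G6pc and Tat span several log2 units.

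The members differed widely in how far libraries of one group spread. Pck1, G6pc and Tat had within-group SDs of 1.71, 1.97 and 1.64 on the log2 scale, larger than those of 99.7%, 99.8% and 99.7% of tested genes, for which the median was 0.27. Pygl and Gys2 had 0.24 and 0.28, and Slc2a2 and Pcx 0.42 and 0.41. The 4 libraries lowest in Pck1 were KODam_KOFetus 1, HetDam_HetFetus 4, FloxDam_FloxFetus 2 and FloxDam_FloxFetus 1, in that order. Among the 20 libraries they ranked 1, 5, 6 and 2 from the lowest for G6pc and 5, 1, 2 and 3 for Tat. For Gys2 the same libraries ranked 4, 20, 18 and 10, so low Pck1 did not go with low Gys2. HetDam_HetFetus 4, one of the 2 libraries with skeletal muscle transcripts, was the highest of all in Fbp1, Pcx, Slc2a2, Gys2 and Pygl. KODam_KOFetus 2, the other such library, had Pck1 at 3.98 and Tat at 4.01, ranks 5 and 18. Hepatocyte markers summed to 16.2, 17.1, 16.4 and 16.2 in the 4 libraries low in Pck1. The part of these marker levels in the spread was not tested.

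**Figure D3:**
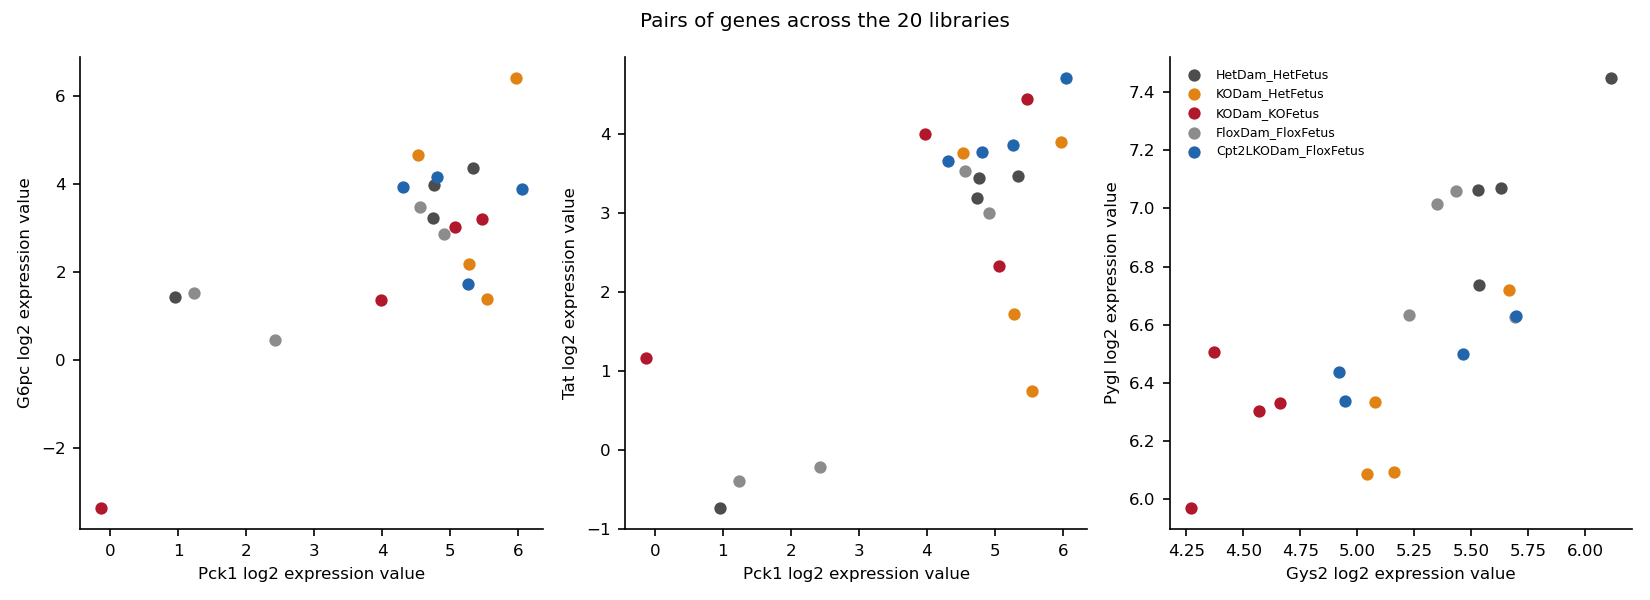
Log2 expression values of G6pc and Tat against Pck1, and of Pygl against Gys2, in the 20 libraries (1 point each, coloured by group). The 4 libraries with Pck1 under 2.5 lie among the 6 lowest for both G6pc and Tat; in the third panel the KODam_KOFetus libraries lie at the left, with Gys2 between 4.27 and 4.66.

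By group means, 7 of the 10 members were lowest in KODam_KOFetus: Pcx, Fbp1, G6pc, Slc37a4, Slc2a2, Gys2 and Pygl. The other 3, Pck1, Ppargc1a and Tat, were lowest in FloxDam_FloxFetus. HetDam_HetFetus was highest for Pcx, Fbp1, Slc37a4, Slc2a2, Gys2 and Pygl, KODam_HetFetus for Pck1, G6pc and Ppargc1a, and Cpt2LKODam_FloxFetus for Tat. Neighbours in these orders mostly did not separate: in 38 of 40 neighbouring pairs of groups the libraries overlapped. The 2 that did not were KODam_KOFetus below KODam_HetFetus for Gys2, and Cpt2LKODam_FloxFetus below KODam_HetFetus for Ppargc1a.

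The median difference of the 10 members was -0.44 with the maternal Ppara knockout, against 0.14 over all tested genes, and 6 of 10 were negative. It was -0.36 for the fetal knockout (all genes -0.01), -0.75 for both (all genes 0.14) and 0.18 for the maternal Cpt2 knockout (all genes -0.01). The 2 maternal effects were also set against each other in one test, which called 0 members (1, Slc2a2, at an unadjusted p under 0.05) and 0% of all genes (19.9% at an unadjusted p under 0.05). Without Cpt2LKODam_FloxFetus replicate 4 that test called 421 genes, and still 0 members. For Slc2a2 the maternal Ppara effect was lower than the maternal Cpt2 effect by -0.88 ± 0.38 on the log2 scale, with an interval of -1.67 to -0.08 (adjusted p = 0.216). For Tat the same difference of effects was -2.33 ± 1.46 (adjusted p = 0.373). Between the controls of the arms, HetDam_HetFetus minus FloxDam_FloxFetus, all 10 differences were positive, with a median of 0.40 (all genes -0.15). None was called, at the adjusted or unadjusted threshold, against 0.136% of all genes (16.5% at an unadjusted p under 0.05).

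Genes around the members were counted from 5 lists of the same pathways. Beside these counts, 26.4% of all tested genes were higher and 12.6% lower with the maternal Ppara knockout. With both knockouts the shares were 17.4% higher and 7.31% lower. Among 19 other glycogen genes tested, 8 fell and 3 rose with the maternal Ppara knockout. Ppp1r3b, the subunit that brings protein phosphatase 1 to glycogen and activates glycogen synthase, had log2 values of 3.61, 4.11, 4.28 and 4.67 in HetDam_HetFetus and 0.81, 1.45, 0.99 and 1.75 in KODam_HetFetus. It fell by 2.92 ± 0.46, 7.57-fold lower (adjusted p = 2.68e-04). Gys1, the glycogen synthase of muscle and other tissues, fell by 1.55 ± 0.23. Stbd1, Ppp1r3c, Ugp2, Pygb and Gbe1 were also called lower. The 3 that rose were Gsk3b, a kinase that inhibits glycogen synthase (0.85 ± 0.17), Phkg2, a catalytic subunit of phosphorylase kinase (0.50 ± 0.13), and Pgm1, a phosphoglucomutase (0.48 ± 0.14). The Pgm1 call was lost under trimmed-mean scaling (0.36, adjusted p = 0.0541), under quantile normalization of the tested genes (0.34, adjusted p = 0.074) and without KODam_HetFetus 1 and 2 (0.44, adjusted p = 0.075). With both knockouts 9 of the 19 fell and 2 rose, and Pgm2, another phosphoglucomutase, was among those that fell (-0.72 ± 0.17, adjusted p = 0.00567). Without the 4 libraries with transcripts of other tissues that count was 4 lower and 1 higher, and Pgm2 was no longer called (-0.59, adjusted p = 0.0857). Over all genes that setting gave 518 lower and 1239 higher calls with both knockouts, against 863 and 2053 with all libraries.

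Of 15 other glucose carriers and kinases tested, 6 fell and 2 rose with the maternal Ppara knockout. Pfkfb1, the liver enzyme that makes and removes fructose-2,6-bisphosphate, the switch between glycolysis and gluconeogenesis, fell by 1.99 ± 0.33 (adjusted p = 3.52e-04). Hk3, a hexokinase of white blood cells, fell by 1.42 ± 0.23, and Slc2a9, a urate carrier of the same family, fell by 1.04 ± 0.21. Slc2a4, the insulin-responsive carrier GLUT4, rose by 1.32 ± 0.24 (2.49-fold, adjusted p = 5.42e-04), from 1.96 to 2.59 in controls to 3.46 to 3.82. Slc2a1, a carrier of fetal red cells and many fetal tissues, rose by 0.78 ± 0.22 (adjusted p = 0.0108), a call lost without KODam_HetFetus 1 and 2 (0.48, adjusted p = 0.186). Neutrophil and myeloid markers fell too (6 of 9), with summed log2 levels of 12.4 to 13.0 in HetDam_HetFetus and 11.6 to 12.4 in KODam_HetFetus. Erythroid markers summed to 17.4 to 17.7 and 17.7 to 17.8 in the same groups, with 1 of 10 higher. The part of these blood cells in the changes of Hk3, Slc2a1 and Slc2a4 was not tested. With both knockouts 6 of the 15 fell and 1 rose, and without KODam_KOFetus replicate 4 3 fell. Leaving out that library also brought the lower calls over all genes from 863 to 533.

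In the list of tyrosine and other amino acid breakdown, to which Tat belongs by function, 8 of 11 other genes tested fell and none rose with the maternal Ppara knockout. Hal, histidine ammonia-lyase, fell by 2.18 ± 0.35 (4.54-fold lower, adjusted p = 2.80e-04), and Gls2, liver glutaminase, by 1.64 ± 0.22. Tat itself differed by 0.19 ± 1.03, with an interval of -1.97 to 2.35. The count was 5 lower without KODam_HetFetus 1 and 2, and 5 without the 4 libraries with transcripts of other tissues. Over all genes these settings gave 523 and 820 lower calls, against 1483 with all libraries. With both knockouts 6 fell, among them Hgd, homogentisate dioxygenase (-1.67 ± 0.27, adjusted p = 5.72e-04). Leaving out single libraries brought that count to 2 (without KODam_KOFetus 1 or 4) or 3 (without KODam_KOFetus 3 or HetDam_HetFetus 1, 3 or 4). Lower calls over all genes in those settings were 533 to 662, against 863 with all libraries.

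Of 21 other substrate entry genes tested, which bring lactate, glycerol and amino acid carbon into the pathway, 6 fell and 1 rose with the maternal Ppara knockout. Gpt, alanine aminotransferase, fell by 1.71 ± 0.44, Aqp9, the hepatocyte glycerol channel, by 1.08 ± 0.28, and Slc25a11, the mitochondrial oxoglutarate carrier, by 1.04 ± 0.23. Gpd2, the mitochondrial glycerol-3-phosphate dehydrogenase, rose by 1.06 ± 0.25 (adjusted p = 0.00313). Its log2 values lay near the filter minimum, at -0.84 to 0.12 in HetDam_HetFetus and 0.51 to 1.17 in KODam_HetFetus. The Gpd2 call held in all 20 alternatives, with differences of 0.24 to 1.26. Without KODam_HetFetus 1 and 2 none of the list was called lower: the adjusted p became 0.0899 for Gpt, 0.113 for Aqp9 and 0.057 for Slc25a11. Lower calls over all genes went from 1483 of 11800 to 523 of 11797 in that setting. With both knockouts 6 fell and none rose, including Gpd1, the cytosolic glycerol-3-phosphate dehydrogenase (-1.47 ± 0.33, adjusted p = 0.00416). That count was 3 without KODam_KOFetus replicate 1 and 2 without replicate 3. Over all genes either setting gave 611 lower calls, against 863 with all libraries.

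Among 23 regulators of gluconeogenesis tested, 4 fell and 4 rose with the maternal Ppara knockout, a split that became 7 and 2 under trimmed-mean scaling. Over all genes that scaling gave 2225 lower and 2228 higher calls, against 1483 and 3117. Cebpa, a hepatocyte transcription factor that Pck1 and Gys2 need in the newborn liver, fell by 1.88 ± 0.29 (adjusted p = 2.06e-04), from 5.53 to 6.10 in controls to 3.58 to 4.47. Foxa2, a forkhead factor of liver, fell by 1.14 ± 0.25, and Hsd11b1, which regenerates active glucocorticoid, fell by 1.54 ± 0.44; both calls were lost without KODam_HetFetus 1 and 2 (adjusted p = 0.0538 and 0.19). Sirt1, a deacetylase that acts on PGC-1alpha, rose by 0.88 ± 0.19. In the fetal comparison the single call of all 5 lists was Creb3l3, a fasting-induced hepatocyte factor and PPARA target. Its log2 values were 6.28, 6.64, 5.78 and 6.06 in KODam_HetFetus and 4.09, 4.11, 4.43 and 4.31 in KODam_KOFetus, and it fell by 1.96 ± 0.17 (3.88-fold lower, adjusted p = 6.84e-07). Gcgr, the glucagon receptor, fell by 0.97 ± 0.23 with both knockouts (adjusted p = 0.00651), where 7 regulators fell and 3 rose. In the Cpt2 arm limma called 0 genes of these 5 lists.

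Markers of cell types were counted the same way. The shares of all tested genes were 26.4% higher and 12.6% lower with the maternal Ppara knockout, and 17.4% and 7.31% with both. In lists this short, counts of 1 or 2 are not read as a change of a cell type. Of 11 hepatocyte markers, 0 fell and 1 rose with the maternal Ppara knockout by limma, Afp, alpha-fetoprotein (0.57 ± 0.19, adjusted p = 0.0213), and the same 0 and 1 were called with both knockouts. Their summed log2 level was 16.3 to 17.1 in HetDam_HetFetus, 16.2 to 16.7 in KODam_HetFetus and 16.2 to 16.6 in KODam_KOFetus. With the maternal Ppara knockout 3 of 8 macrophage markers fell, as did 2 of 4 of cholangiocytes and hepatoblasts. Of 6 adrenal markers listed only 2, Hsd3b1 and Cyp17a1, passed the filter, and both fell. Cyp11a1, Cyp11b1, Cyp21a1 and Star did not pass it, so the fall of the 2 is not read as a loss of adrenal cells. With both knockouts, 4 of 9 neutrophil and myeloid markers and the same 2 adrenal markers were called lower (median difference of the adrenal pair -2.04). So were 1 of 6 stellate and matrix markers and 1 of 4 gut markers, while 2 of 10 erythroid markers rose. The gut markers Cdx1, Cdx2, Vil1 and Sis did not pass the filter. Of those tested, Fabp1 ran from 7.24 to 9.41 and Tff3 from 6.40 to 9.06 over the libraries. A fall in this list is therefore not read as a loss of gut cells. The part of these cell types in the changes of the members was not tested.

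Genes with the pattern most like each member were taken over the 20 libraries from 11633 tested genes with a value in every library, by Pearson correlation, as a description without a test. Libraries share normalization, litter and genotype group, and these correlations say nothing of function. Pygl was most like Aldh7a1 (r = 0.957), Aox3 and Abca8a, and Fbp1 most like Asgr1 (0.946), Serpina11 and Fgl1. Slc37a4 was nearest to Sbk1 (0.941) and Glt1d1, Slc2a2 to Deptor (0.935), Polg and Fpgs, and Pcx to C4b (0.945), Qsox1 and 1300017J02Rik. Gys2 was nearest to Acaa2 (0.858), Pgm2 and Grhpr, and Ppargc1a to Ncoa1 (0.883), Cobll1 and Pnpla7. For Tat these were Cdip1 (0.920), Ei24 and Tex261, for Pck1 Fmnl1 (0.853), Rassf5 and Cdc42ep1, and for G6pc P2ry2 (0.844), Npnt and Cebpd. None of the 10 members was among the 3 genes nearest to another.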

How the data were processed

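RNA of 20 fetal livers was extracted with Trizol and a column, and stranded poly(A) libraries were read as single reads of 75 bases, per the labels' protocols. The submitters' processing notes name bcl2fastq 2.17.1.14, Partek 7.0 and GRCm38.p6; which aligner and counting rule were used is not given in the sources used here. The authors deposited log2 values, quantile normalized, with blanks read as no value. Samples were grouped by their titles. The values were fitted as deposited with limma 3.58.1 in R 4.3.3 (trend, all 20 libraries, 1 mean per group, two-sided, Benjamini-Hochberg over all tested genes); errors after ± are SE. Alternatives changed the scaling, pseudocount (0.1 or 4), filter, covariates, blocks and libraries. Named genes of each list were up to 3 called genes a direction and comparison with the smallest p; other names were chosen after their values were seen. A few genes that this rule names are left out of the text. Scripts for limma were checked on simulated data. Promoters are RefSeq, searched for exact letters. The members, lists and tests were chosen with earlier results of these data known.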

Additional observations from a re-analysis of the deposited data

Results flagged for a closer look

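Within groups of 4, 6 of the 50 combinations of a member and a group had a library far from the other 3 by Dixon's criterion, where chance gives about 1 in 20. HetDam_HetFetus replicate 4 accounts for 3 of them: Pck1 at 0.96 (the next library at 4.74), Tat at -0.73 (next 3.19), both low, and Gys2 at 6.11 (next 5.63), high. It also carried skeletal muscle transcripts, whose part was not tested. In KODam_KOFetus, Fbp1 stood low in replicate 1 at 4.76, with the others from 7.16 to 7.35. In Cpt2LKODam_FloxFetus, G6pc stood low in replicate 4 at 1.73, with the others from 3.88 to 4.16. In KODam_HetFetus, Ppargc1a stood high in replicate 4 at 1.36, with the others from 0.76 to 0.86.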

How the results depend on the processing

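For the 60 differences of the 10 members in 6 comparisons, 1304 alternative values were computed. Of these 1280 stayed on the same side of the threshold, 11 lost a call, 13 gained one, and no called difference changed sign, while 42 values without a call had the other sign. The number of members called with the maternal Ppara knockout, 2, was 2 to 5 when single libraries were left out. Calls over all genes then numbered 3536 to 4215. The 5 came without KODam_HetFetus replicate 4, which added Pcx (-0.70, adjusted p = 0.0429), Fbp1 (-1.36, adjusted p = 0.0443) and Gys2. In that setting 4169 of 11795 genes were called, 1629 of them lower. The number of members was 1 without the presumed littermates KODam_HetFetus 1 and 2, where 2845 of 11797 genes were called, 523 of them lower. With both knockouts the number called, 4, was 2 without the 4 libraries with transcripts of other tissues, an alternative chosen after seeing the data: Slc2a2 and Gys2. There 1757 of 11784 genes were called, 518 of them lower. Whether the replicate numbers of the titles pair the samples is not known. Of 40 same-numbered pairs, 17 had deviations correlated over 0.1 (-0.38 to 0.44). No rate for differently numbered pairs was computed, so this count cannot decide it. With the replicate block, Ppargc1a was called for the maternal knockout (adjusted p = 0.0258) and Pcx for both (adjusted p = 0.0175), and no call of a member was lost. Over all genes the maternal Ppara knockout gave 2845 calls without KODam_HetFetus 1 and 2, against 4600, and the combined knockout 1757 without the 4 libraries, against 2916. With presumed litter as a random block these became 3768 and 2321 calls, at an estimated correlation within litters of 0.566. Trimmed-mean scaling moved the median of all genes from 0.14 to 0.02 for the maternal knockout and turned its 3117 higher and 1483 lower calls into 2228 and 2225. The depth behind low values, such as G6pc in KODam_KOFetus 1, is unknown, and the cause of calls that changed was not tested.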
